A study of Penicillium oxalicum with 6 samples.

Results

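Some transcripts that RNA sequencing detects have no entry in the gene annotation of a genome. Penicillium oxalicum is a mould known for its secreted cellulases and amylases. In its deposited files, 1077 of 10899 listed IDs carry no locus tag and consist of a text prefix and a serial number between 1 and 8851. The 49 of them with a mean of at least 50 FPKM over the 6 libraries are described here, and each is named by its serial number. They were chosen by their mean level alone, so a high mean is not a finding, and the direction of change played no part. FPKM is a fragment number scaled to transcript length and to the library's total. Values of a group are given in the order of replicates 1, 2 and 3.

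The parental group comprised 3 libraries from mycelium of a strain without PoxKu70, a gene acting in non-homologous end joining, although the genotype field of these samples reads WT. The silenced group comprised 3 libraries from a strain of the same background in which the gene POc04478 was silenced with 5 μM copper ions added. Copper is named for the silenced samples alone and its presence in parental cultures is not stated, so copper and silencing cannot be told apart. All cultures spent 24 h in glucose medium and then 24 h in a medium for enzyme production, whose carbon source is Avicel (microcrystalline cellulose) in the protocol and raw starch in the treatment field. Whether replicates came from separate cultures is not stated, and p-values therefore measure only library-to-library spread, some of which may be technical.

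As background, transcripts outside an annotation are assembled from reads that fall between, opposite or beyond known genes. They can be long non-coding RNAs, antisense transcripts, short protein-coding genes missed by gene prediction, or extensions of known genes. Ribosomal and organellar RNAs can also appear among them when the annotation used does not list them. The files give neither sequences nor positions for these IDs, so none of these kinds is assigned to any transcript here, and no sequence is printed. Whether serial numbers follow positions on chromosomes is not given either.

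The silenced gene POc04478 was matched by its letter and number to the locus tag POX_c04478, which was lower in the libraries labelled silenced. It had 159, 116 and 131 FPKM in the parental and 15.9, 17.8 and 19.0 FPKM in the silenced replicates (log2 fold change -2.87 ± 0.15 SE, limma adjusted p = 0.00012; exact two-sided permutation p = 0.1, the smallest possible with 3 against 3 libraries). The estimated sequencing depth, relative to parental replicate 1, lay between 1 and 1.58. Correlations of log2(FPKM + 1) across the tested IDs were 0.94 to 0.97 within the parental and 0.98 to 0.99 within the silenced group, and 0.81 to 0.87 between groups. Parental replicate 1 stood apart from the other 2 parental libraries in many of the transcripts below, and calls that change without it are given both ways. In bulk mycelium, fewer cells of a kind and less RNA per cell cannot be told apart.

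Unannotated transcripts were seldom abundant. The 49 made up 4.55% of the unannotated IDs, whereas 3462 of 9822 locus tags (35.2%) reached the same mean level. The median over all unannotated IDs of the mean level was 3.00 FPKM, against 27.5 FPKM over all locus tags. A few of the 49 ranked very high by the mean that chose them: 4 of the 5 IDs with the highest mean, 5 of the 10 highest, 6 of the 20 highest 8 of the 100 highest and 23 of the 1000 highest were unannotated. Among the 49 themselves, 9 had a mean of at least 1000 FPKM, 25 lay between 100 and 1000 FPKM, and 15 lay under 100 FPKM. None was listed at 0 in any library. The 2 with the lowest means were transcripts 4071 and 2473, at 55.8 and 55.5 FPKM. The nearest below the threshold were transcripts 8820 and 8823, at means of 49.8 and 45.4 FPKM. At least 50 FPKM was reached in all 6 libraries by 30 of the 49, in all parental and no silenced library by 6, and in all silenced and no parental library by 5.

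**Figure D1:**
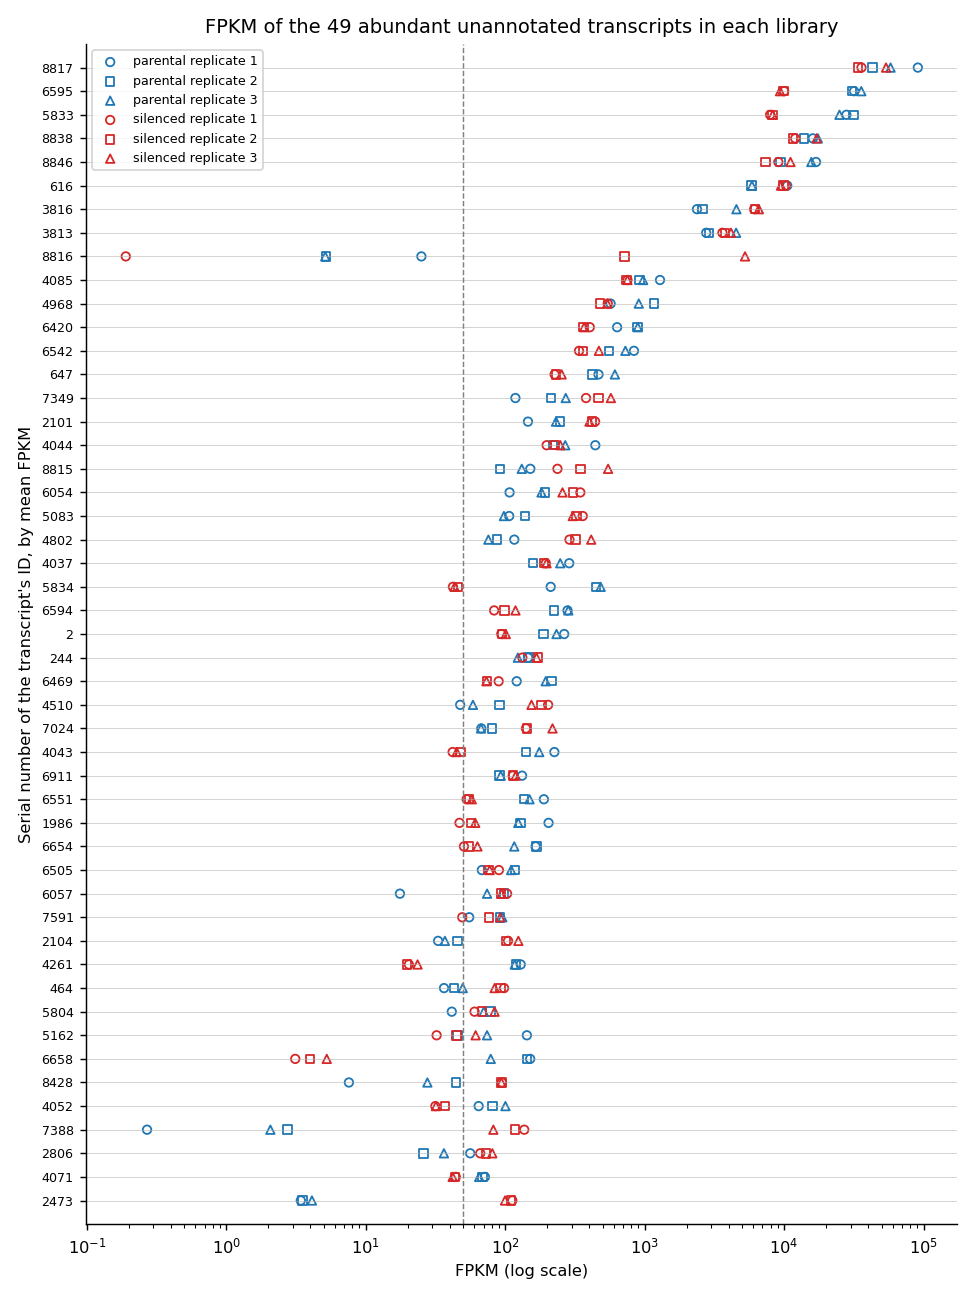
FPKM on a log scale (x axis) of each of the 49 unannotated transcripts, named by serial number and ordered by mean (y axis), with 1 point per library: blue for parental, red for silenced, and 1 symbol per replicate number. The dashed line marks 50 FPKM. Levels run from 0.19 FPKM for transcript 8816 in silenced replicate 1 to 91028 FPKM for transcript 8817 in parental replicate 1.

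Together the 49 transcripts held a larger part of the summed FPKM in the parental than in the silenced libraries. Their share was 15.6%, 11.5% and 13.4% in the parental and 8.20%, 7.80% and 10.3% in the silenced replicates. The 2 groups did not overlap, with means of 13.5% ± 2.07 and 8.77% ± 1.34 (SD, n = 3 each). No test is given for this sum, because its members were chosen. All other unannotated IDs together held 0.331% to 0.571% per library.

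That share belonged to very few transcripts. The 8 most abundant accounted for 94.3% to 96.0% of the FPKM of the 49 in the parental libraries and for 90.3% to 93.3% in the silenced libraries, and the other 41 for 0.552% to 0.998% of all summed FPKM. Transcript 8817 alone supplied 29.1% to 43.8% of the FPKM of the 49. The lower share in the silenced libraries lay in the 3 most abundant, 8817, 6595 and 5833, which held 11.4%, 8.17% and 9.08% of all summed FPKM in the parental libraries and 4.34%, 4.12% and 5.54% in the silenced libraries. Of these 3, the share of 8817 overlapped between the groups. The share of 6595 and 5833 together did not, at 4.66% ± 0.16 in the parental and 1.42% ± 0.04 in the silenced libraries (SD). The other 46 transcripts held 3.99% ± 0.56 and 4.10% ± 0.58, a difference smaller than the spread between replicates. Their sum joins transcripts that rose with transcripts that fell.

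**Figure D2:**
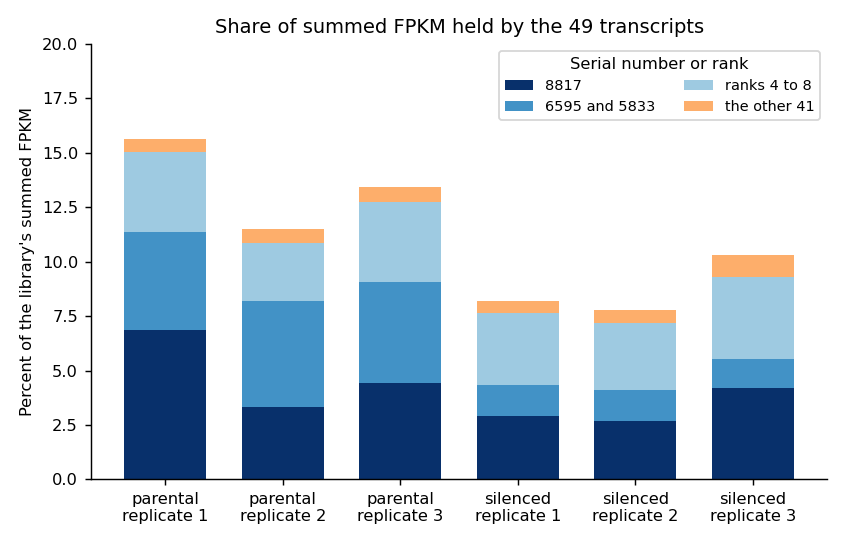
Percent of each library's summed FPKM (y axis) held by the 49 unannotated transcripts in the 6 libraries (x axis), stacked as transcript 8817, transcripts 6595 and 5833, ranks 4 to 8 by mean, and the other 41. The segment of transcripts 6595 and 5833 averages 4.66% ± 0.16 in the parental and 1.42% ± 0.04 in the silenced libraries (SD, n = 3 each).

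Transcript 8817 had the highest FPKM of all IDs in each library. It measured 91028, 43093 and 58011 FPKM in the parental and 35883, 33988 and 53853 FPKM in the silenced replicates. The groups overlapped, since silenced replicate 3 exceeded parental replicate 2. The difference did not pass the test (log2 fold change -0.60 ± 0.44 SE, adjusted p = 0.29 by limma). The log2 fold change was -0.31 without parental replicate 1 (adjusted p = 0.34) and -0.85 without parental replicate 2 (adjusted p = 0.16). By itself it took 6.86% of the summed FPKM of parental replicate 1 and 2.69% to 4.44% in the other 5 libraries.

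Transcripts 6595 and 5833, next in mean level, both fell. Transcript 6595 had 31768, 30742 and 35785 FPKM in the parental and 10013, 9870 and 9352 FPKM in the silenced replicates. It was 3.36-fold lower, and its log2 change was -1.75 ± 0.26 (SE; adjusted p = 0.0016). Transcript 5833 had 27978, 31356 and 24953 FPKM in the parental and 7935, 8272 and 8282 FPKM in the silenced replicates, 3.44-fold lower (log2 fold change -1.78 ± 0.25 SE, adjusted p = 0.0014). Every silenced value lay far below every parental value in both. Both were also among the 5 of the 49 with the smallest spread between replicates. Their ratio, 6595 over 5833, was 1.14, 0.98 and 1.43 in the parental and 1.26, 1.19 and 1.13 in the silenced replicates, the most constant ratio of any pair among the 15 most abundant (SD of the log2 ratio 0.18 over 6 libraries).

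Transcripts 8838 and 8846, following in abundance, did not pass the test. Transcript 8838 had 16075, 13930 and 17457 FPKM in the parental and 12013, 11574 and 17115 FPKM in the silenced replicates (log2 fold change -0.24 ± 0.29 SE, adjusted p = 0.51). Transcript 8846 had 16938, 9407 and 15683 FPKM in the parental and 9088, 7374 and 11113 FPKM in the silenced replicates (-0.58 ± 0.33 SE, adjusted p = 0.18). With library weights in the limma fit, 8846 passed (log2 fold change -0.82, adjusted p = 0.020) and 8838 did not (adjusted p = 0.077). In both, the groups overlapped, and within the silenced group replicate 3 was the highest, as it was for 8817. The ratio of 8817 to 8846 stayed between 3.70 and 5.37 over the 6 libraries, the second most constant among the 15 most abundant (SD of the log2 ratio 0.20).

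Transcripts 616, 3816 and 3813 completed the 8 most abundant. Transcript 616 had 10528, 5860 and 5881 FPKM in the parental and 10319, 9931 and 9494 FPKM in the silenced replicates. Only parental replicate 1 brought its groups to overlap, and the log2 fold change of 0.47 ± 0.30 (SE; adjusted p = 0.22) became 0.76 without that library (adjusted p = 0.0023). Library weights gave 0.69 (adjusted p = 0.0058). Transcript 3816 had 2372, 2599 and 4550 FPKM in the parental and 6098, 6190 and 6589 FPKM in the silenced replicates. It was higher in each silenced library and passed the test with all libraries (log2 fold change 1.05 ± 0.29 SE, adjusted p = 0.021), but not without parental replicate 2 or any 1 silenced replicate (adjusted p = 0.057 to 0.068). Transcript 3813, 3 serial numbers away, had 2763, 2904 and 4528 FPKM in the parental and 3612, 3775 and 4162 FPKM in the silenced replicates and did not pass (0.21 ± 0.25 SE, adjusted p = 0.49). The ratio of 3816 to 3813 was 0.86 to 1.00 in the parental and 1.58 to 1.69 in the silenced libraries.

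Transcript 8816 had the widest spread between replicates of the 49. It had 25.1, 5.19 and 5.12 FPKM in the parental and 0.19, 719 and 5245 FPKM in the silenced replicates. Its mean of 1000.1 FPKM, ninth among the 49, therefore rested on silenced replicates 2 and 3, and it would not have been chosen without them. Within the silenced group the SD of log2(FPKM + 1) was 6.33. Its log2 fold change of 4.05 ± 2.89 (SE) did not pass (adjusted p = 0.27), but was 7.61 without silenced replicate 1 (adjusted p = 0.0040) and 1.56 without silenced replicate 3 (adjusted p = 0.65). With library weights and every library present it passed (log2 fold change 6.66, adjusted p = 0.040). Beside 6595 it formed the least constant ratio among the 15 most abundant (SD of the log2 ratio 5.77). Transcripts 8815 and 8817 carry the serial numbers on either side of it. Transcript 8815 had 151, 91.6 and 131 FPKM in the parental and 237, 347 and 547 FPKM in the silenced replicates, and passed the test as higher (log2 fold change 1.53 ± 0.34 SE, adjusted p = 0.0085). Silenced replicate 3 was the highest of its group for 8815, 8816 and 8817, as it was for 28 of the 49.

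Over all 49 transcripts, 15 rose and 17 fell at an adjusted p under 0.05, and 17 did not pass. The 32 called are 65.3% of the 49, beside 54.8% of all 9341 tested IDs and 59.4% of the 3462 locus tags with a mean of at least 50 FPKM. By direction, 30.6% rose and 34.7% fell, beside 24.4% and 30.4% of all tested IDs. Of those locus tags, 33.6% rose and 25.8% fell. The groups did not overlap for 34 of the 49 (69.4%), beside 65.9% of all tested IDs and 70.4% of those locus tags. All 49 passed the filter on low values. A transcript that reached the mean of 50 FPKM only through 1 group had to differ between the groups, so these counts describe the 49 and support nothing further. The median log2 fold change was -0.24 for the 49 and -0.12 for all tested IDs, and the median absolute log2 fold change was 1.08 and 0.66. For the locus tags with a mean of at least 50 FPKM these medians were 0.07 and 0.73. A change of at least 1 on the log2(FPKM + 1) scale was called for 28 of the 49 (57.1%), 13 higher and 15 lower, beside 30.1% of all tested IDs and 35.1% of the locus tags with a mean of at least 50 FPKM.

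**Figure D3:**
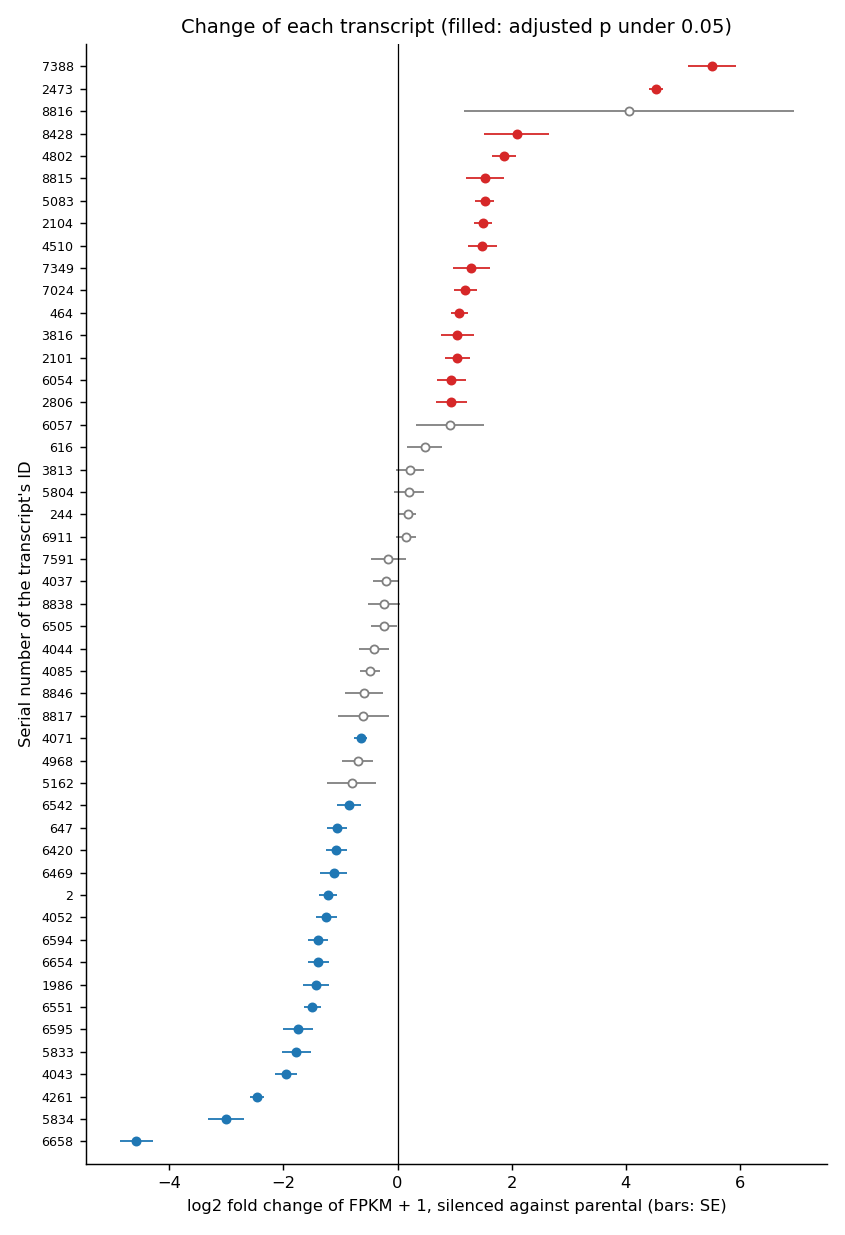
Log2 fold change of FPKM + 1, silenced against parental (x axis; bars show the SE, 3 libraries per group), for each of the 49 transcripts by serial number (y axis). Filled red points rose, filled blue points fell at an adjusted p under 0.05, and open grey points did not pass. The values run from -4.58 for transcript 6658 to 5.50 for transcript 7388, and the bar of 8816 is the widest.

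The largest increases belonged to 2 transcripts that were low in every parental library. Transcript 7388 had 0.27, 2.74 and 2.07 FPKM in the parental and 137, 118 and 82.2 FPKM in the silenced replicates, a 66.3-fold difference of means (log2 fold change 5.50 ± 0.42 SE, adjusted p = 2e-04). Transcript 2473 had 3.42, 3.53 and 4.11 FPKM in the parental and 112, 110 and 99.7 FPKM in the silenced replicates, 29.1-fold higher (4.53 ± 0.12 SE, adjusted p = 2.1e-05). The gap between groups exceeded the spread within them by far in both, and the replicates of 2473 were among the tightest of the 49. Both were chosen only through their silenced levels.

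Among the next largest increases, 5 transcripts rose 2.74-fold to 3.66-fold. Transcript 8428 had 7.57, 44.5 and 27.7 FPKM in the parental and 94.6, 93.8 and 93.8 FPKM in the silenced replicates (log2 fold change 2.09 ± 0.57 SE, adjusted p = 0.020), and did not pass without any 1 silenced replicate (adjusted p = 0.052 to 0.058). Its 3 silenced values were nearly equal, whereas its parental values spanned 5.88-fold. Transcript 4802 had 116, 87.1 and 75.7 FPKM in the parental and 289, 320 and 414 FPKM in the silenced replicates (1.87 ± 0.21 SE, adjusted p = 0.00063). Transcript 5083 rose 2.88-fold, from 107, 139 and 97.9 FPKM to 360, 324 and 305 FPKM (1.53 ± 0.17 SE, adjusted p = 0.00055). Transcript 2104 rose 2.86-fold, from 33.0, 45.5 and 36.9 FPKM to 105, 101 and 124 FPKM (1.497 ± 0.16 SE, adjusted p = 0.00053). Transcript 4510 rose 2.74-fold, from 47.5, 90.9 and 58.7 FPKM to 203, 183 and 154 FPKM (1.48 ± 0.25 SE, adjusted p = 0.0029). In these 4 the groups were clearly apart.

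The other 6 that rose, 7349, 7024, 464, 2101, 6054 and 2806, had log2 fold changes between 0.94 and 1.29. The most abundant of them, 7349, had 118, 212 and 272 FPKM in the parental and 380, 467 and 572 FPKM in the silenced replicates (1.29 ± 0.32 SE, adjusted p = 0.015), and did not pass without silenced replicate 3 (adjusted p = 0.053). Transcript 2101, 3 serial numbers from 2104, had 146, 248 and 231 FPKM in the parental and 441, 421 and 402 FPKM in the silenced replicates (1.05 ± 0.22 SE, adjusted p = 0.0071). Transcripts 6054 and 2806 lost the call without single libraries, as the closing section gives. The parental means of 464 and 2806 were 43.0 and 39.4 FPKM, so both were chosen only through their silenced levels.

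The largest decrease was that of transcript 6658, which had 151, 143 and 78.7 FPKM in the parental and 3.12, 3.97 and 5.25 FPKM in the silenced replicates. It fell 30.2-fold (log2 fold change -4.58 ± 0.29 SE, adjusted p = 0.00016). Transcript 5834, the serial neighbour of 5833, had 212, 449 and 483 FPKM in the parental and 42.2, 46.1 and 43.3 FPKM in the silenced replicates, and fell 8.69-fold (-3.00 ± 0.31 SE, adjusted p = 0.00048). Its parental replicate 1 was less than 0.5 times the other 2, while its silenced replicates were nearly equal. Transcript 4261 had 129, 119 and 117 FPKM in the parental and 20.4, 19.7 and 23.5 FPKM in the silenced replicates, and fell 5.75-fold with narrow groups (-2.47 ± 0.12 SE, adjusted p = 9.2e-05). Transcript 4043 had 225, 140 and 175 FPKM in the parental and 42.0, 47.9 and 44.9 FPKM in the silenced replicates, and fell 4.01-fold (-1.96 ± 0.19 SE, adjusted p = 0.00035).

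Beyond these and the pair 6595 and 5833, 11 further transcripts fell, with log2 fold changes from -1.49 to -0.65. Transcript 6551 fell 2.87-fold, from 189, 137 and 149 FPKM to 52.9, 54.9 and 57.5 FPKM (-1.49 ± 0.15 SE, adjusted p = 0.00043). Transcript 1986 fell 2.77-fold, from 205, 129 and 124 FPKM to 47.0, 56.9 and 60.9 FPKM (-1.43 ± 0.22 SE, adjusted p = 0.0021). Transcripts 6420, 647 and 6542, all among the 15 most abundant, fell by smaller factors. Transcript 6420 had 635, 891 and 893 FPKM in the parental and 404, 365 and 368 FPKM in the silenced replicates (-1.07 ± 0.18 SE, adjusted p = 0.0028). Transcript 647 had 467, 424 and 612 FPKM in the parental and 226, 231 and 254 FPKM in the silenced replicates (-1.06 ± 0.17 SE, adjusted p = 0.0024). Transcript 6542 had 838, 557 and 727 FPKM in the parental and 338, 362 and 470 FPKM in the silenced replicates (-0.85 ± 0.21 SE, adjusted p = 0.014), and did not pass without silenced replicate 1 or 2 (adjusted p = 0.061). The smallest called change was that of transcript 4071, at 71.5, 68.6 and 65.0 FPKM in the parental and 44.2, 43.6 and 42.0 FPKM in the silenced replicates (-0.65 ± 0.11 SE, adjusted p = 0.0027). The remaining 5, transcripts 6594, 6654, 4052, 2 and 6469, fell 2.24-fold to 2.67-fold.

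For 2 transcripts the groups did not overlap and the test was still not passed. Transcript 4085 had 1289, 918 and 975 FPKM in the parental and 753, 742 and 753 FPKM in the silenced replicates (log2 fold change -0.48 ± 0.18 SE, adjusted p = 0.053). Transcript 4968 had 570, 1167 and 907 FPKM in the parental and 544, 479 and 540 FPKM in the silenced replicates (-0.70 ± 0.27 SE, adjusted p = 0.065). In both, parental replicate 1 was the extreme value of its group, highest for 4085 and lowest for 4968. Without it, adjusted p was 0.024 and 0.0019, and the log2 fold changes were -0.34 and -0.98. Transcript 4085 also passed without parental replicate 2 (adjusted p = 0.039), and with every library present it passed with equal summed FPKM of locus tags (adjusted p = 0.046), with no variance trend (adjusted p = 0.042) and with library weights (adjusted p = 0.0083). Median-of-ratios scaling gave it an adjusted p of 0.14. Transcript 4968 passed with library weights (adjusted p = 0.00067).

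Leaving out parental replicate 1 brought 2 more transcripts past the test, both of which had overlapping groups. Transcript 6505 had 68.0, 117 and 110 FPKM in the parental and 90.1, 75.9 and 77.4 FPKM in the silenced replicates. Its log2 fold change was -0.24 ± 0.22 (SE; adjusted p = 0.39), and -0.49 without that library (adjusted p = 0.013). Transcript 6911 had 132, 90.9 and 92.9 FPKM in the parental and 113, 114 and 119 FPKM in the silenced replicates. Its log2 fold change was 0.15 ± 0.17 (SE; adjusted p = 0.48), and 0.33 without that library (adjusted p = 0.024). With 616, 4085 and 4968, these are the 5 transcripts that gained a call without parental replicate 1. Over all tested IDs, calls also went up without that library, from 5118 to 5576.

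Replicates agreed less closely in the parental than in the silenced group. The SD of log2(FPKM + 1) was larger among the parental libraries for 41 of the 49 transcripts. Its median over the 49 was 0.39 in the parental and 0.13 in the silenced group, and over the locus tags of mean at least 50 FPKM it was 0.28 and 0.12. The highest parental value was more than 2 times the lowest for 11 of the 49, whereas the same held in the silenced group for 2, transcripts 8815 and 8816. Without parental replicate 1 the median SD was 0.21 for the 49 and 0.15 for those locus tags. It was 0.36 and 0.26 without parental replicate 2, and 0.42 and 0.30 without parental replicate 3. SDs over different numbers of libraries are not directly comparable. Parental replicate 1 was at least 1.5-fold above both other parental libraries for 7 of the 49 and at least 1.5-fold below both for 12, against 2 and 3 for parental replicate 2 and 2 and 1 for parental replicate 3.

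**Figure D4:**
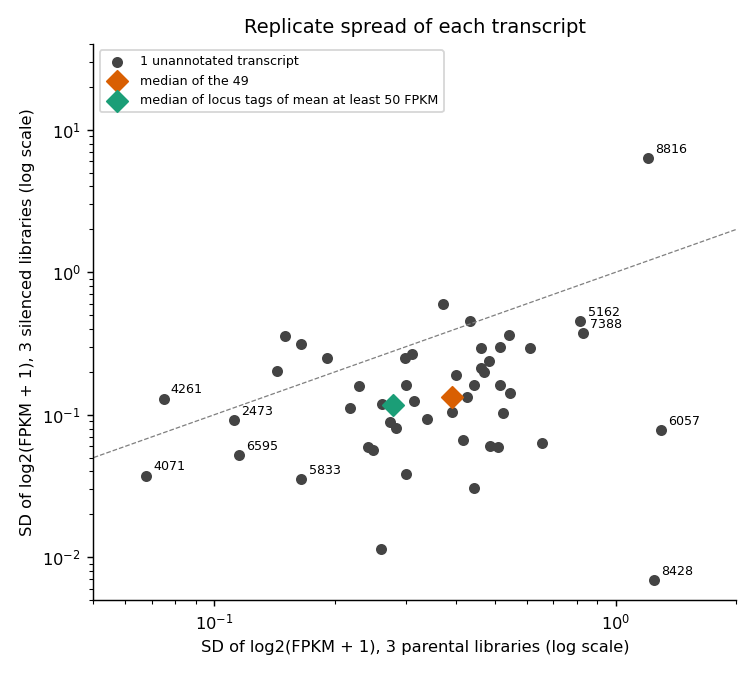
SD of log2(FPKM + 1) among the 3 parental libraries (x axis) and among the 3 silenced libraries (y axis), both on log scales, for each of the 49 transcripts. Diamonds mark the median of the 49 and of locus tags of mean at least 50 FPKM, the dashed line marks equal spread, and the 5 transcripts of largest and of smallest pooled spread are labelled. Most points lie below the line, and 8816 lies far above it.

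Transcripts at both ends of that range were the following. The pooled SD was smallest for 4071, 6595, 2473, 4261 and 5833, all of which passed the test. The spread within groups enters that test, so a small spread favours a call. It was largest for 8816, 6057, 8428, 5162 and 7388. Transcript 6057 had 17.6, 98.3 and 74.1 FPKM in the parental and 103, 93.6 and 94.1 FPKM in the silenced replicates, so that only parental replicate 1 was low (log2 fold change 0.92 ± 0.59 SE, adjusted p = 0.23). Transcript 5162 had 143, 45.6 and 74.1 FPKM in the parental and 32.2, 44.8 and 61.3 FPKM in the silenced replicates, with parental replicate 1 high (-0.80 ± 0.43 SE, adjusted p = 0.16; adjusted p = 0.043 without parental replicate 2).

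Of the 49 transcripts, 23 had another of the 49 within 10 serial numbers, in 10 groups, a grouping made after the values were seen. In 4 of these groups every member fell (5833 with 5834, 6542 with 6551, 6594 with 6595, and 6654 with 6658), and in 1 every member rose (2101 with 2104). In 1 none passed (8838 with 8846), 4 held members that passed beside members that did not, and no group held both a rise and a fall. These counts cover the 49 alone, and no share over all IDs is given beside them. Among IDs below the threshold, 4808 and 2477 were lower in every silenced than in any parental library. They lie within 10 serial numbers of 4802 and 2473, which rose. Others, such as 6655 and 6659, were lower like 6658 near them. Whether neighbours in number change together was not tested. Some neighbours in number were close in level, such as 8838 and 8846, whose ratio was 0.95 to 1.57 over the 6 libraries, and others were far apart. Transcript 6594 had 280, 224 and 283 FPKM in the parental and 83.3, 98.6 and 118 FPKM in the silenced replicates, so that 6595 exceeded it 114-fold, 137-fold and 126-fold in the parental and 120-fold, 100.1-fold and 78.9-fold in the silenced replicates. Transcript 5833 exceeded 5834 by 51.6-fold to 132-fold in the parental and by 180-fold to 191-fold in the silenced libraries. Transcript 6654 exceeded 6658 by 1.09-fold to 1.47-fold in the parental and by 12.0-fold to 16.2-fold in the silenced libraries.

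The end of the numbering, from 8815 to 8851, held 17 unannotated IDs, 5 of which were among the 49 and 3 among the 6 IDs of the highest mean of all. The stretch was delimited after its values were seen. Transcripts 8817, 8838 and 8846 were between 7374 and 91028 FPKM in each library. The 12 IDs of the stretch outside the 49 were far lower. For 10 of these 12, parental replicate 1 was at least 4-fold above both other parental libraries. Transcript 8820, just below the threshold, had 210, 14.6 and 50.6 FPKM in the parental and 7.54, 6.47 and 10.1 FPKM in the silenced replicates. Transcript 8823 had 224, 11.6 and 25.6 FPKM in the parental and 1.89, 4.74 and 5.01 FPKM in the silenced replicates. In both, the highest value by far was that of parental replicate 1.

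**Figure D5:**
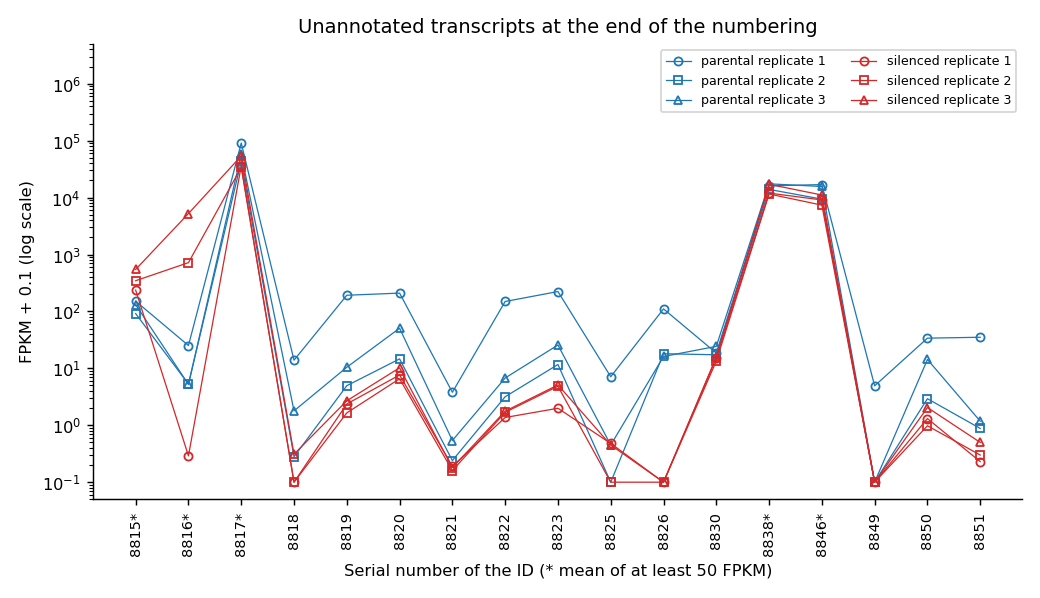
FPKM + 0.1 on a log scale (y axis) of the 17 unannotated IDs with the highest serial numbers, in order of number (x axis; stars mark the 5 of mean at least 50 FPKM), with 1 line per library, blue for parental and red for silenced. Parental replicate 1 runs above the other libraries at the low transcripts from 8818 to 8826, and silenced replicates 2 and 3 rise above the rest at 8816.

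Among locus tags with a mean of at least 50 FPKM, the one whose ratio to a transcript varied least over the 6 libraries was found for each of the 3 most abundant transcripts. For 8817 it was POX_g09051, at 142, 75.9 and 86.8 FPKM in the parental and 59.2, 62.3 and 71.5 FPKM in the silenced replicates (SD of the log2 ratio 0.17). For 6595 it was POX_d05137, at 122, 108 and 131 FPKM in the parental and 32.1, 32.3 and 32.2 FPKM in the silenced replicates (SD 0.10). For 5833 it was POX_h09778, at 796, 852 and 634 FPKM in the parental and 199.7, 206 and 226 FPKM in the silenced replicates (SD 0.08). Each was the closest of 3451 locus tags above 0 in every library.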

How the data were processed

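Poly(A) RNA of 6 libraries, 3 parental and 3 silenced, was sequenced, per the labels' protocols, which state no strand-specific step. The authors deposited FPKM values, 1 file per library, per the file headers. Tools named per the submitters' processing notes are bcl2fastq and HISAT2. Not given in the sources used here are the counting program, the build, the annotation and how unannotated transcripts were defined. An added prefix on the locus tags of parental replicate 2 was removed. The fragment number is unknown. Relative depth was fitted to steps of values between 0.15 and 1.2 FPKM, where 444 of 5166 ratios lay within 0.03 (log2) of the fit.

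Silenced and parental libraries were compared with limma 3.58.1 in R 4.3.3, with a trended variance, on log2(FPKM + 1). The 9341 IDs that reached 1 FPKM in 3 or more libraries entered. P-values were two-sided and Benjamini-Hochberg adjusted over all of these, with calls at an adjusted p under 0.05. Fold differences without "log2" are ratios of group means of FPKM. Same-numbered libraries deviated from their group means with correlations of 0.0014, 0.029 and 0.12 over all tested IDs, so no pairing was assumed.

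Named in full were the 15 most abundant transcripts, the 8 largest called changes each way, the 5 of largest and of smallest spread, those beside the threshold, the most constant ratios and the target. Transcripts named beyond this rule were chosen after their values were seen. The transcripts and lists were chosen with earlier results of these data known. Alternatives covered pseudocount, filter, scaling, block, trend, library weights, membership threshold and leaving out each library. Python 3.11.15, pandas 2.3.3, numpy 2.4.6 and matplotlib 3.10.9 did the rest.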

Additional observations from a re-analysis of the deposited data

How the results depend on the processing

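All-ID calls numbered 5118, and 4667 with the replicate block, under which 15 of the 49 transcripts rose and 17 fell, as without it. Scaling by median of ratios moved the median log2 fold change of all tested IDs from -0.12 to 0.0017, and again 15 rose and 17 fell. Of the 32 called transcripts, 26 (10 higher, 16 lower) passed in each of the 15 alternatives, and no called transcript changed sign. The other 6 lost the call only where a library was left out: 3816, 2806, 8428, 6542, 6054 and 7349. Transcript 6054 did so without silenced replicate 1 or 2 (adjusted p = 0.070 and 0.060), and 2806 without parental replicate 3 or any 1 silenced replicate (adjusted p = 0.054 to 0.077). Of the single-transcript values under these alternatives, 697 kept sign and side, 16 lost the call, 19 gained it and 3 turned sign. Those turning were uncalled: 5804, at 0.20, came to -0.0398 with library weights and to -0.0800 to 0.373 without 1 library (lowest without parental replicate 1), and 7591, at -0.16, to -0.409 to 0.0932 without 1 library (highest without silenced replicate 1). The cause was not tested. A membership threshold of 100 FPKM left 9 higher and 13 lower of 34, and one of 20 FPKM gave 19 higher and 49 lower of 107, so that the balance of directions depends on the threshold. The share of summed FPKM went from 13.5% to 9.10% (parental) and from 8.77% to 5.71% (silenced) without transcript 8817, and to 4.42% and 4.30% without the 3 most abundant, taken from both parts of the ratio. The parental median SD was 0.39, and 0.21 to 0.42 without 1 library. Fragment numbers are unknown, so the part of counting error in the spread is unknown too. Leaving out 1 library gave 11 to 17 higher and 16 to 20 lower, beside 3603 to 5576 calls over all IDs. Library weights gave 19 higher and 21 lower, beside 6597 calls over all IDs.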

Other observations

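The less abundant unannotated transcripts moved downward more often than upward. Of the 824 tested with a mean under 50 FPKM, 93 rose and 280 fell (45.3% called), and the median log2 change was -0.41. Of all tested IDs, 54.8% were called, and the median was -0.12. By direction, 11.3% of the 824 rose and 34.0% fell, beside 24.4% and 30.4% of all tested IDs. Pooled over the 824, the share that fell was near that of all tested IDs, and the share that rose was smaller. By level, the share that fell was above that of all tested IDs between 5 and 50 FPKM. It was slightly below that of all tested IDs between 1 and 5 FPKM. Between 20 and 50 FPKM, 4 rose and 32 fell of 58, between 5 and 20 FPKM 32 rose and 102 fell of 246, and between 1 and 5 FPKM 53 rose and 139 fell of 496. Another 204 unannotated IDs did not reach the filter.

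Near transcript 6658 in the numbering, 2 transcripts below the threshold also fell. Transcript 6655 had 118, 70.6 and 46.2 FPKM in the parental and 0.42, 0.55 and 0.43 FPKM in the silenced replicates (log2 fold change -5.65 ± 0.32 SE, limma adjusted p = 0.00013). Transcript 6659 had 105, 67.6 and 52.3 FPKM in the parental and 4.48, 4.61 and 5.49 FPKM in the silenced replicates (-3.64 ± 0.26 SE, adjusted p = 0.00019). Transcript 4998 had 12.7, 13.4 and 8.14 FPKM in the silenced replicates, and its 3 parental values are listed as 0. Transcript 8826 had 111, 18.0 and 16.1 FPKM in the parental replicates and was listed at 0 in all silenced libraries. Transcript 3814, between 3813 and 3816 in number, was listed at 0 in parental replicate 1 and silenced replicates 1 and 3, and at 18.6, 73.9 and 9.11 FPKM in parental replicates 2 and 3 and silenced replicate 2. These transcripts were chosen after their values were seen.

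Over all unannotated IDs, 34 were at 1 FPKM or more in parental replicate 1 and at least 4-fold above both other parental libraries, 11 of them in the stretch from 8815 to 8851. The same count was 18 for each of the other 2 parental libraries, with 0 in that stretch. Over locus tags the count was 57, 34 and 49 for parental replicates 1, 2 and 3.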
